A study of Mus musculus with 12 samples.

Results

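Integrins are the adhesion receptors with which T cells hold on to other cells and to matrix. The 9 genes described here encode the integrin chains that CD8+ T cells are known to use: Itgal, Itgb2, Itga4, Itgb1, Itgb7, Itgae, Itgav, Itgb3 and Itga6. They were taken by symbol from a table of 55291 gene symbols, and all 9 were found and passed the filter on low counts, as did 19010 symbols in all. RNA was sequenced from mouse CD8+ T cells of lymph node and spleen after 3 days of activation and expansion in culture and a further 24 h in bovine collagen gel or in media. The groups were Dock8 KO cells in gel, Dock8 KO cells in media, WT cells in gel and WT cells in media, with 3 libraries each. The collagen was Nutragen at 2 mg/mL, and the labels call the cells taken from it migrating. Every group had been activated, so no library shows resting T cells, and the labels give neither the kind of Dock8 allele nor whether the gel and media libraries of a genotype came from the same mice. The p-values therefore measure the spread between these libraries. The comparisons address which integrin transcripts differed between gel and media within a genotype, between the genotypes within a culture, and whether the response to gel differed between the genotypes.

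An integrin is a pair of an alpha and a beta chain that reaches the cell surface only as a pair, so the level of a chain is best read beside that of its partners. On resting T cells integrins are held in a bent, weakly binding form. Signals from the T cell receptor or a chemokine receptor, passed on through Rap1, talin and kindlin, extend them. Dock8 is an exchange factor for Cdc42, a GTPase that directs actin assembly, and Dock8-deficient T cells are known for losing their shape while squeezing through dense matrix.

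The promoters of 4 of the 9 genes (Itga4, Itgb1, Itgb7 and Itgav) were present in a RefSeq table of 250 bases before to 50 bases after the annotated start, on build GRCm38.p6. Those of Itga4 (chr2:79255176-79255475, plus strand), Itgb1 (chr8:128685404-128685703, plus strand) and Itgb7 (chr15:102231886-102232185, minus strand) are shown because these genes were lower in KO gel than in WT gel cells. Each is read 5′ to 3′ along the gene, and capitals mark a GC box, the letters GGGCGG bound by Sp and KLF factors, or a RUNX core, TGTGGT or its reverse complement.
Itga4: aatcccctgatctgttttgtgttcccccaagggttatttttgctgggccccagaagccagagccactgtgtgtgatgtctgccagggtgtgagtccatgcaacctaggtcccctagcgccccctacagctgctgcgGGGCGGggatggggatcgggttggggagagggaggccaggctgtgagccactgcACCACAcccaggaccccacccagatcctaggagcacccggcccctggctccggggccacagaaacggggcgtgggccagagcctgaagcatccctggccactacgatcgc
Itgb1: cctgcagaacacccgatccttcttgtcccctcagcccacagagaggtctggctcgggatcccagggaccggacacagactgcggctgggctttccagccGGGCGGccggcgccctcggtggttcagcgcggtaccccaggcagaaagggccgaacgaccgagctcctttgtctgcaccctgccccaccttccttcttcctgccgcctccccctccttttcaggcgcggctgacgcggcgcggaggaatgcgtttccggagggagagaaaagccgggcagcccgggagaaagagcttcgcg
Itgb7: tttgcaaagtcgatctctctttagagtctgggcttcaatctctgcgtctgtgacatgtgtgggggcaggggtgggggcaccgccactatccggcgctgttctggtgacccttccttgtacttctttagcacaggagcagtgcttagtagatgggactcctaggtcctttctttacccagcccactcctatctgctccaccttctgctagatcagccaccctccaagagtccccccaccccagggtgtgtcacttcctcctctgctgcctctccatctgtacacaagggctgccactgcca

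The Itga4 promoter held a GC box that began 114 bases before the start and a RUNX core on the opposite strand 60 bases before it. RUNX factors are known regulators of T cell integrin genes. The Itgb1 promoter held a GC box 151 bases before the start and no RUNX core. The Itgb7 promoter held neither. An ETS core, CCGGAAG, and an AP-1 site, TGANTCA, were searched on both strands and were found in none of these promoters. Among all 27025 promoters of the same length, 35.9% held the GC box, 16.9% the RUNX core, 9.12% the ETS core and 7.93% the AP-1 site. The promoters also differed in base composition. Itgb1 had 67.3% G and C with 27 CpG dinucleotides, Itga4 had 64.3% with 10 and Itgb7 had 56.3% with 5, where the median promoter had 52.7% and 7. The GC box was thus in 2 of these 3 promoters, and no motif searched was in all 3. The Itgav promoter, not shown, also held a GC box, 7 bases after the start, with 67.3% G and C and 24 CpG dinucleotides. Itgav was not called lower in KO gel.

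Dock8 itself stood at 168, 161 and 158 CPM (counts per 1000000 of the library's TMM-scaled total) in KO gel and 126, 109 and 125 CPM in KO media, against 378.5, 410.5 and 449.6 CPM in WT gel and 362.5, 418 and 443 CPM in WT media. The KO libraries thus lay below every WT library. Cd8a and Cd8b1, the chains of the CD8 co-receptor, were abundant in all 12 libraries, at 517 to 744 and 667 to 847 CPM. The libraries held 28483064 to 61390702 counts. The KO gel libraries stood apart from the others, with 28371 to 30087 genes detected at a common depth against 24336 to 25101 in the other 9 libraries. Mitochondrial transcripts took 2.27 to 2.61% of their counts, against 1.34 to 2.31%. WT gel library 2 and KO media library 3 carried 3.74% and 2.31% of counts from loci resembling ribosomal RNA, against 0.350 to 1.20% in the other 10. The counts of integrins called in KO gel, against KO media and against WT gel, are also given without these libraries. The other genes named below were not rerun without them. Markers of platelets and megakaryocytes, mast cells, erythroid cells and neutrophils were low everywhere but higher in KO gel. The summed level of the 8 platelet markers was 12.9 to 29.3 CPM in KO gel, 5.82 to 8.49 CPM in KO media, 3.83 to 6.92 CPM in WT gel and 3.74 to 6.22 CPM in WT media. The 5 mast cell markers summed to 10.3 to 16.5, 5.73 to 9.10, 5.69 to 8.17 and 4.33 to 7.49 CPM in the same groups. The 5 neutrophil markers summed to at most 1.35 CPM in any library, with S100a8 and S100a9 at 0 in KO gel, and the 5 erythroid markers to at most 2.80 CPM. Of the 5 CD4 and regulatory T cell markers, 3 rose in KO gel against KO media (Cd4, Cd40lg and Ikzf2), where 11.1% of all genes rose. In KO against WT gel 1 was called higher, where 7.12% of all genes were. In KO against WT media 1 was called lower, where 0.189% of all genes were called in either direction. The sum of the 5 markers, mostly Ikzf2, was 177 to 202 CPM in KO gel and 131 to 144 CPM in KO media. It was 179 to 194 CPM in WT gel and 167 to 170 CPM in WT media. The 6 B cell markers, nearly all of whose counts were Ighm, summed to 747 to 820 CPM in KO gel, 737 to 919 CPM in KO media, 900 to 1060 CPM in WT gel and 900 to 1020 CPM in WT media. Of these, 3 were tested, with a median log2 fold change of −0.28 in KO against WT gel. There 0 of them were called, but all 3 had an unadjusted p under 0.05 in edgeR, as had 5715 of all 19010 genes. Ms4a1, a marker that defines B cells, was at most 0.0831 CPM. The part of these library measures in the results below was not tested.

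Each of the 9 genes had 1871 to 32012 counts in every library, so that counting error was small beside the spread between libraries. Per length of merged exons, beta chains led the order of levels. Over the 12 libraries Itgb7 averaged 179 ± 16.9 RPKM (CPM per kilobase, SD), Itgb2 126 ± 12.1, Itgb1 79.8 ± 13.2, Itgal 66.5 ± 5.37, Itgae 40.3 ± 14.9, Itga4 39.4 ± 7.75, Itgb3 21.4 ± 2.83, Itga6 11.2 ± 1.08 and Itgav 6.48 ± 0.629 RPKM. Every step of this order held in all 12 libraries except around Itgae. Itgal was above Itgae in 10 of 12 libraries, and Itgae above Itga4 in 6 of 12, so Itgae and Itga4 were not separated. The gene length matters for the lower ranks. With the principal transcript in place of the merged exons, an alternative added after the levels were seen, Itga4 averaged 56.4 RPKM and Itgae 48.0 RPKM, Itga6 23.3 RPKM and Itgb3 21.8 RPKM, so that both pairs changed places. The summed level of the 9 genes was 492 ± 4.08 RPKM in KO gel, 559 ± 11.2 RPKM in KO media, 624 ± 2.33 RPKM in WT gel and 604 ± 0.0420 RPKM in WT media (SD, n = 3 each). It was lowest in KO gel, and the KO media libraries also lay below all WT libraries, with no overlap.

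**Figure D1:**
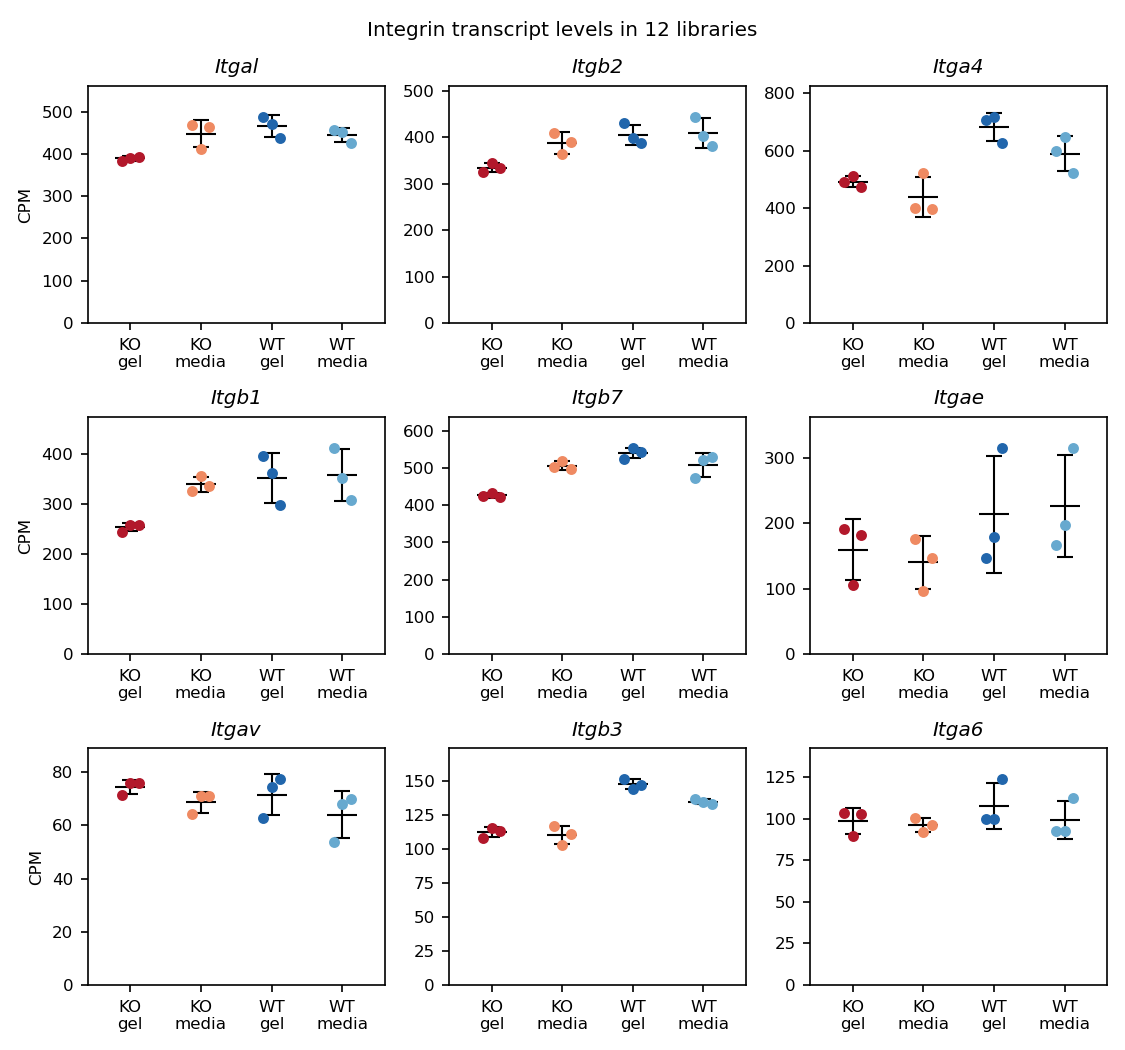
Levels of the 9 integrin transcripts in CPM (vertical axis, from 0) in each of the 12 libraries, by group; points are libraries, horizontal bars the mean and whiskers 1 SD (n = 3). The KO gel points of Itgal, Itgb2, Itgb1 and Itgb7 lie below all others of the gene, and both KO groups of Itga4 and Itgb3 lie below both WT groups.

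The main difference was between the genotypes in gel. In KO gel against WT gel cells, 6 of the 9 genes were lower and 0 were higher at an adjusted p under 0.05 (edgeR, quasi-likelihood; Benjamini and Hochberg's adjustment over all 19010 genes). Over all genes, 7.71% were called lower in this comparison. The 6 were Itgb3, Itgb7, Itga4, Itgb1, Itgb2 and Itgal, with log2 fold changes from −0.48 to −0.26, and in each the KO gel libraries lay below all WT gel libraries. The median of the 9 genes was −0.34, beside 0.00 for all genes tested. Abundant genes as a whole leaned to lower values: the 9919 genes whose log2 CPM averaged 3 or more, a level that all 9 integrins exceeded, had a median of −0.07, with 1319 of them called lower and 396 higher. The 8 T cell markers (Cd8a, Cd8b1, Cd3d, Cd3e, Cd3g, Trac, Gzmb and Prf1) were also lower in sum, at 2840 to 2920 CPM in KO gel against 3110 to 3400 CPM in WT gel, and 1 of them was called, Trac (−0.24, SE 0.06, adjusted p 0.0157). In bulk RNA, fewer cells with a transcript and less of it per cell cannot be told apart.

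Within KO cells, 2 of the 9 genes were lower in gel than in media, Itgb1 and Itgb7, and 0 were higher. DESeq2 and limma-voom each called 4 lower, with Itgal and Itgb2 added. Over all genes, 9.74% were called lower in this comparison. The median of the 9 genes was 0.03, beside −0.01 for all genes. The 9919 abundant genes leaned lower here too, with a median of −0.08, 1669 of them called lower and 630 higher. Within WT cells, 0 of the 9 differed between gel and media by edgeR, DESeq2 or limma-voom, and 0 had an unadjusted p under 0.05 in edgeR, where 0.0368% of all genes were called in either direction. Between the genotypes in media, 0 of the 9 were called by edgeR and 2 had an unadjusted p under 0.05, where 0.189% of all genes were called. DESeq2 called 2 there, Itga4 and Itgb3, and limma-voom 0. The interaction, the gel response in KO cells minus that in WT cells, called 0 of the 9 by edgeR, with 3 at an unadjusted p under 0.05, where 3.35% of all genes were called; DESeq2 and limma-voom each called Itgb7. The gel comparisons share the KO gel libraries, so the values of a gene in them are not independent.

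These counts moved with the scaling and with single libraries. Under total counts alone, which shifted the median of all genes to 0.10 in KO against WT gel, 3 of the 9 stayed called (Itga4, Itgb1 and Itgb3). All genes then split into 1875 higher and 407 lower, against 1354 and 1465 with TMM factors. The split of KO gel against KO media was 2007 higher and 869 lower under total counts, against 2111 and 1851, and that of the interaction 458 and 24, against 360 and 276. Under total counts alone the 6 genes ranged from −0.37 to −0.15 in KO against WT gel. Relative to the shifted median of all genes they ranged from −0.47 to −0.25. That step nearly puts back the centring of the TMM factors, so it is no separate check of the scaling. Without WT gel library 2 and KO media library 3, 2 stayed called in KO against WT gel (Itgb3 and Itgb7) and 0 in KO gel against KO media, while the log2 fold changes of the 6 genes ranged from −0.45 to −0.25.

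**Figure D2:**
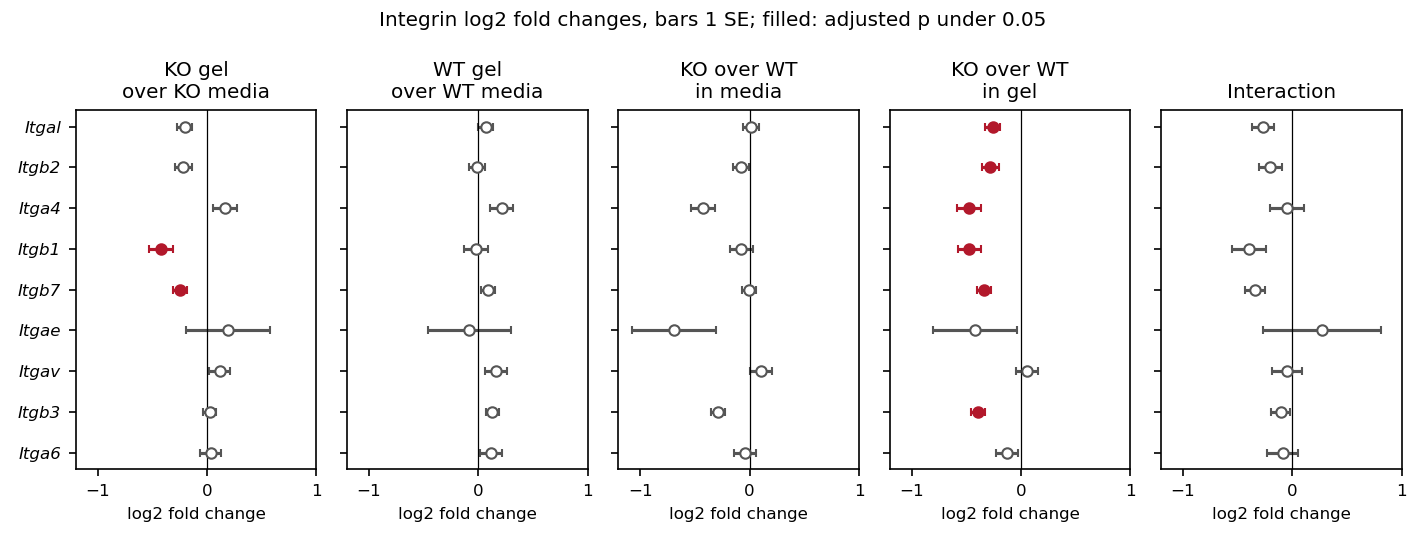
Log2 fold changes of the 9 genes (horizontal axes) in the 5 comparisons; bars are 1 SE and filled points have an adjusted p under 0.05 in edgeR. Filled points appear for Itgb1 and Itgb7 in KO gel over KO media and for 6 genes in KO over WT in gel.

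**Figure D3:**
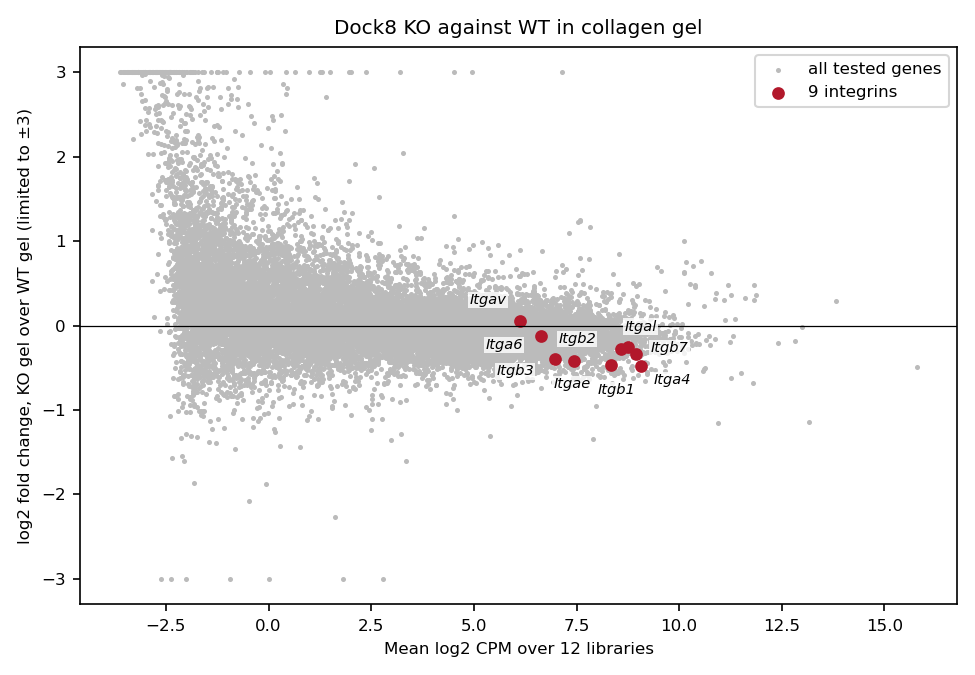
Log2 fold change of KO gel over WT gel (vertical axis, limited to ±3) against the mean log2 CPM over 12 libraries (horizontal axis) for all 19010 tested genes in grey, with the 9 integrins in red. The integrins sit among the abundant genes, 8 of them below 0 and Itgav just above it.

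Itgal and Itgb2 (chromosome 7, 127296260 to 127335138, and chromosome 10, 77530252 to 77565708, GRCm38) encode the alpha and beta chains of LFA-1, the receptor for ICAM-1 with which cytotoxic cells grip their targets. Itgal was at 383, 391 and 393 CPM in KO gel, 468, 412 and 463 CPM in KO media, 487, 471 and 437 CPM in WT gel, and 456.5, 451 and 424.5 CPM in WT media. Itgb2 was at 325, 344 and 333 CPM in KO gel, 410.0, 364 and 389.6 CPM in KO media, 429.6, 399 and 387.5 CPM in WT gel, and 444, 402 and 381 CPM in WT media. For both chains the 3 KO gel libraries were the lowest of all 12, while the other 3 groups overlapped. In KO gel against WT gel the log2 fold change was −0.26 for Itgal (SE 0.07, adjusted p 0.0246) and −0.28 for Itgb2 (SE 0.07, adjusted p 0.0222). In KO gel against KO media it was −0.20 for Itgal (SE 0.07, adjusted p 0.0539) and −0.22 for Itgb2 (SE 0.07, adjusted p 0.0536), neither of them called by edgeR. DESeq2 called both there (adjusted p 0.0182 for Itgal and 0.0250 for Itgb2), as did limma-voom (0.0490 and 0.0487). The values against WT gel were the least firm of the 6 calls. Among abundant genes alone, with factors computed on them, they were −0.18 for Itgal (adjusted p 0.0696) and −0.20 for Itgb2 (adjusted p 0.0583). Leaving out any of KO gel libraries 1 and 3 and WT gel libraries 1 and 2 ended the call of both, with adjusted p from 0.0590 to 0.0801, and leaving out KO gel library 2 ended that of Itgal (adjusted p 0.0691). Both chains were called in KO gel against KO media without KO media library 2, WT gel library 1 or 3, or WT media library 1 or 3, with adjusted p from 0.0214 to 0.0477.

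Itga4 (chromosome 2, 79255426 to 79333123) encodes the alpha chain that pairs with Itgb1 to bind VCAM-1 and fibronectin and with Itgb7 to bind MAdCAM-1 on gut vessels. Its levels were 491, 510.3 and 473 CPM in KO gel, 399, 521 and 396.5 CPM in KO media, 706, 717 and 627.5 CPM in WT gel, and 598.5, 647.5 and 524 CPM in WT media. All 6 KO libraries lay below all 6 WT libraries, although the highest KO and the lowest WT value, both in media, nearly touched. In gel the log2 fold change of KO over WT was −0.48 (SE 0.11, adjusted p 0.00958). In media it was of like size, −0.43 (SE 0.11), but did not pass the test (adjusted p 0.264). The difference in media was called under 5 of 21 alternatives. Both numbers count the average over both cultures given below, which includes the gel libraries. With the replicate number as a block over all 12 libraries the adjusted p was 0.0267. Same-numbered libraries of KO media and WT media correlated only at 0.21, 0.17 and 0.38. Without KO media library 2 the adjusted p was 0.0461 at a log2 fold change of −0.57. Without WT gel library 2 and KO media library 3 the value in media was −0.35 (adjusted p 0.902). That in gel was then −0.44 (adjusted p 0.0540). Averaged over both cultures, a contrast added after these values were seen, KO over WT was −0.45 (SE 0.08, adjusted p 0.00395). That comparison called 3.82% of all genes lower and 4 of the 9 integrins. Gel against media gave 0.16 in KO cells (SE 0.11, adjusted p 0.282) and 0.21 in WT cells (SE 0.11, adjusted p 0.928). The value in KO cells was 0.30 and called without KO media library 2 (adjusted p 0.0454), and 0.07 and not called without KO media library 3. The gene Cerkl lies on the opposite strand and shares 1124 of the 13978 exon bases of Itga4 (8.04%). Its mean of 4.07 CPM is small beside Itga4, and the strand setting of the counting is not given in the sources used here.

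Itgb1 (chromosome 8, 128685654 to 128733200) encodes the shared beta chain of the receptors for fibronectin, laminin and collagen. Its levels were 245, 258.5 and 258.6 CPM in KO gel, 327, 356 and 336 CPM in KO media, 396, 362 and 298 CPM in WT gel, and 412.5, 352.5 and 308 CPM in WT media. The KO gel libraries were again below the other 9, at 254 ± 7.9 CPM, and the WT libraries were the most spread. It fell in gel among KO cells, by a log2 fold change of −0.42 (SE 0.11, adjusted p 0.0156), against −0.02 in WT cells (SE 0.11). Against WT gel the difference was −0.47 (SE 0.11, adjusted p 0.0106). The interaction was −0.39 (SE 0.15) and did not pass the test (adjusted p 0.174), though it did without WT gel library 3 (−0.52, adjusted p 0.0487) or WT media library 1 (−0.52, adjusted p 0.0272). It was called under 4 of 19 alternatives. Its adjusted p was 0.405 under total counts alone and 0.379 without WT gel library 2 and KO media library 3. The fall within KO cells lost its call without KO gel library 1 (adjusted p 0.0586) or KO media library 2 (adjusted p 0.0503).

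Itgb7 (chromosome 15, 102215995 to 102231944), the beta chain of the gut-homing receptor with Itga4 and of the E-cadherin receptor with Itgae, was the most abundant of the 9 per length. Its levels were 424, 433 and 422 CPM in KO gel, 504, 519 and 497 CPM in KO media, 525, 554 and 542 CPM in WT gel, and 472, 522 and 530.3 CPM in WT media. The replicates were close, so that a change of moderate size passed the test. The log2 fold change was −0.25 in KO gel against KO media (SE 0.06, adjusted p 0.0154) and −0.34 in KO gel against WT gel (SE 0.06, adjusted p 0.00316). In WT cells gel against media gave 0.09 (SE 0.06, adjusted p 0.994), and −0.0045 under total counts alone. The interaction was −0.34 (SE 0.09, adjusted p 0.0586 in edgeR). Its adjusted p was 0.00254 in DESeq2, 0.0476 in limma-voom and 0.0428 in edgeR without WT media library 1. It was called under 5 of 19 alternatives. Under total counts alone it was −0.21 (adjusted p 0.415). Without WT gel library 2 and KO media library 3 it was −0.34 (adjusted p 0.206). The fall within KO cells missed the threshold without KO gel library 3 (adjusted p 0.0560), among abundant genes alone (−0.18, adjusted p 0.0666) and under total counts alone (−0.21, adjusted p 0.111). Total counts alone also ended the call against WT gel (−0.24, adjusted p 0.0926).

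Itgae (chromosome 11, 73090583 to 73147446) encodes the alpha chain CD103, which with Itgb7 binds E-cadherin and marks T cells that stay in epithelia. Its levels were 191, 105 and 182 CPM in KO gel, 175.5, 96.6 and 147 CPM in KO media, 146, 179 and 315 CPM in WT gel, and 167, 197 and 314 CPM in WT media. The spread within groups was large and followed the replicate number. KO library 2 was the lowest of its group in both cultures, and WT library 3 the highest of its group in both. The SD within groups was 0.49 on the log2 scale, larger than that of 99.3% of the 9919 abundant genes, whose median was 0.105. No comparison passed the test in the fit to filtered genes. KO over WT gave −0.42 in gel (SE 0.38, adjusted p 0.509) and −0.69 in media (SE 0.38, adjusted p 0.734), and gel over media gave 0.19 in KO cells and −0.08 in WT cells (SE 0.38 each). With no filter beyond 1 count the genotype difference was called in media (−0.69, adjusted p 2.78e-13) and in gel (−0.45, adjusted p 5.02e-06), at values of like size. The counts of Itgae were the same in both fits. What part of the fit moved these calls was not tested. Without WT gel library 3 the value in gel was −0.03 (adjusted p 0.958), and without WT media library 3 the value in media was −0.38. Each KO gel library exceeded the KO media library of its number, by less than the spread between numbers. The labels do not say that numbers pair libraries. Over genes, same-numbered KO gel and KO media libraries correlated at only −0.04, 0.20 and 0.17.

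**Figure D4:**
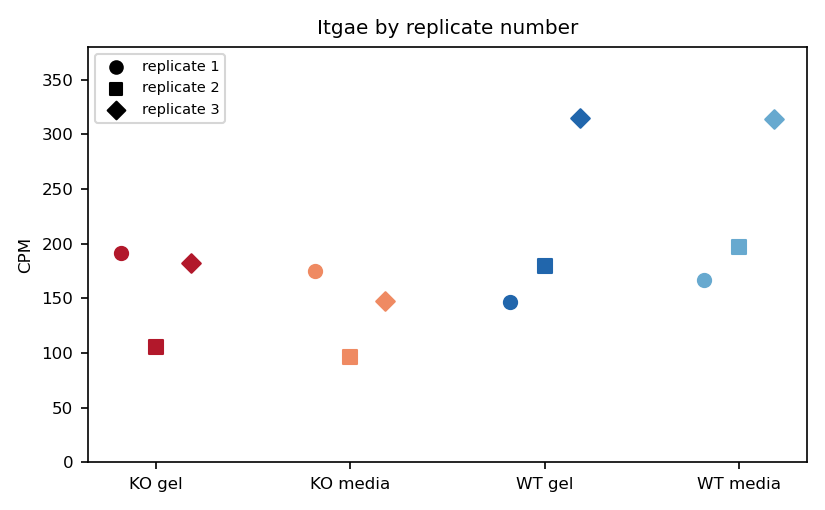
Itgae level in CPM (vertical axis, from 0) in the 12 libraries by group, with the marker shape giving the replicate number. Within each genotype the numbers keep their order in both cultures, with KO library 2 at 105 and 96.6 CPM and WT library 3 at 315 and 314 CPM in gel and media.

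Itgb3 (chromosome 11, 104608000 to 104670476) encodes the beta chain of the vitronectin receptor with Itgav and of the platelet fibrinogen receptor with Itga2b. Its levels were 108, 115 and 113.5 CPM in KO gel, 116.5, 103 and 111 CPM in KO media, 151, 144 and 147 CPM in WT gel, and 137, 134 and 133 CPM in WT media. All 6 KO libraries lay below all 6 WT libraries, with a gap wider than the spread of either genotype in a culture. KO over WT was −0.39 in gel (SE 0.06, adjusted p 9.20e-04), the smallest p of the 9, and −0.29 in media (SE 0.06, adjusted p 0.115 in edgeR and 3.14e-04 in DESeq2). Averaged over both cultures it was −0.34 (SE 0.04, adjusted p 6.04e-04). The call in gel held under all 20 alternatives, with adjusted p up to 0.0379. Gel against media gave 0.03 in KO cells (SE 0.06) and 0.13 in WT cells (SE 0.06, adjusted p 0.901), where the WT gel libraries lay above the WT media libraries.

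Itgav (chromosome 2, 83724397 to 83806916) and Itga6 (chromosome 2, 71745616 to 71858416) were the least abundant of the 9 per length. The alpha chain from Itgav pairs with several beta chains and is known for releasing TGF-β from its latent form, and that from Itga6 binds laminin with Itgb1. Itgav was at 71.4, 75.8 and 76.0 CPM in KO gel, 64.1, 70.9 and 71.0 CPM in KO media, 62.6, 74.5 and 77.4 CPM in WT gel, and 53.7, 68.1 and 69.8 CPM in WT media. Itga6 was at 104, 89.6 and 103 CPM in KO gel, 101, 92.4 and 96.3 CPM in KO media, 99.7, 99.7 and 124 CPM in WT gel, and 92.8, 92.7 and 113 CPM in WT media. Neither passed the test in any comparison. Library 1 had the lowest Itgav value in every group, and the KO gel libraries were all above those of KO media, at a log2 fold change of 0.12 (SE 0.10, adjusted p 0.412). Between the genotypes in gel, Itgav gave 0.06 (SE 0.10, adjusted p 0.746) and Itga6 −0.13 (SE 0.10, adjusted p 0.418). Neither was called lower in KO against WT gel, where their partners Itgb1 and Itgb3 were, and the difference between the chains was not tested.

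Ratios of alpha to beta level per length within a library describe how the partners moved against each other, with no test. For LFA-1 the log2 ratio of Itgal to Itgb2 was −0.89 ± 0.03 in KO gel, −0.90 ± 0.04 in KO media, −0.91 ± 0.04 in WT gel and −0.98 ± 0.07 in WT media (SD, n = 3 each), a span smaller than that of any other pair given here. Both chains were thus lower in KO gel by a like amount. The ratio of Itga4 to Itgb1 was −0.82 ± 0.07 in KO gel and −1.42 ± 0.17 in KO media, against −0.81 ± 0.12 in WT gel and −1.05 ± 0.17 in WT media. KO gel lay above KO media with no overlap, and the ratio in KO gel was that of WT gel, at lower levels of both chains. The ratio of Itga4 to Itgb7 was also lowest in KO media, at −2.13 ± 0.04 in KO gel, −2.55 ± 0.19 in KO media, −1.998 ± 0.11 in WT gel and −2.12 ± 0.20 in WT media. The ratio of Itga6 to Itgb1 was −2.51 ± 0.15 in KO gel and −2.96 ± 0.13 in KO media, with no overlap, and each WT group overlapped both. Ratios over Itgb1 share its lower level in KO gel. The ratio of Itgav to Itgb3 separated the genotypes in both cultures, at −1.46 ± 0.01 in KO gel and −1.55 ± 0.16 in KO media, against −1.91 ± 0.19 in WT gel and −1.95 ± 0.23 in WT media.

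**Figure D5:**
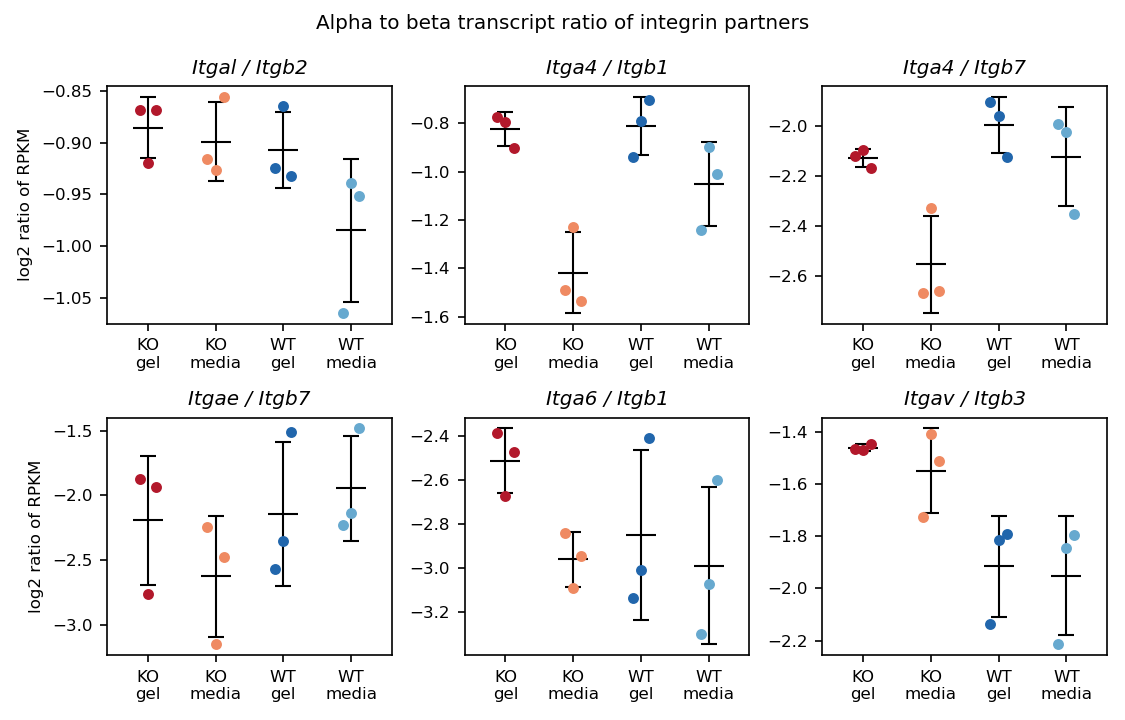
Log2 ratio of alpha to beta transcript per length (vertical axes, each with its own range) for 6 integrin pairs in the 12 libraries; points are libraries, bars the mean and whiskers 1 SD (n = 3). Itga4 to Itgb1 is low in KO media, at −1.42, and Itgav to Itgb3 is higher in both KO groups than in both WT groups.

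The chains that bind collagen itself were low. Of the 4 alpha chains of that kind, all partners of Itgb1, Itga11 was not tested for low counts, at most 0.175 CPM in any library, and Itga1 was at 0.731 to 1.51 CPM. Itga2 was at 11.2, 12.6 and 9.25 CPM in KO gel, 12.9, 16.4 and 14.4 CPM in KO media, 12.1, 14.6 and 13.0 CPM in WT gel, and 13.96, 14.7 and 13.0 CPM in WT media. It fell in KO gel against KO media (−0.40, SE 0.12, adjusted p 0.0317). Itga10 rose in that comparison (0.93, SE 0.19, adjusted p 0.00474), at 1.90, 2.02 and 2.42 CPM in KO gel against 1.18, 0.905 and 1.23 CPM in KO media. None of the 3 tested differed in KO against WT gel by edgeR, where 2 had an unadjusted p under 0.05. Of 13 further integrin chains, 9 were tested. Over all genes, 11.1% were called higher in KO gel against KO media and 7.12% in KO against WT gel. In KO gel against KO media 3 of these rose, Itga2b, Itga3 and Itgb4, and in KO against WT gel Itga2b rose and Itga7 fell (−0.90, SE 0.18, adjusted p 0.00549). Itgax, an alpha chain that pairs with Itgb2 and is known from myeloid cells and some activated T cells, is named here after its values were seen, as the most abundant of the 13. It was at 30.9, 42.0 and 36.8 CPM in KO gel, 34.2, 45.2 and 34.9 CPM in KO media, 31.5, 23.2 and 13.4 CPM in WT gel, and 32.1, 22.5 and 12.4 CPM in WT media. Its KO over WT value in gel was not called (0.69, SE 0.37, adjusted p 0.250), and library 3 was the lowest of both WT groups, where Itgae was highest.

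Itga2b, the platelet partner of Itgb3, had the largest fold rise among the integrin chains tested, at 7.15, 11.4 and 10.1 CPM in KO gel and 2.80, 3.25 and 3.74 CPM in KO media, against 3.07, 2.63 and 3.00 CPM in WT gel and 2.66, 2.35 and 2.33 CPM in WT media. The log2 fold change was 1.71 in KO against WT gel (SE 0.17, adjusted p 4.90e-05) and 1.55 in KO gel against KO media (SE 0.17, adjusted p 5.67e-05). The interaction was called too (1.30, SE 0.24, adjusted p 0.0140). Itga2b was on the platelet marker list, of which 5 of the 7 tested genes rose in KO against WT gel and 4 in KO gel against KO media. The part of other cells in its rise was not tested. Itgb3 did not rise with it.

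Genes that act on integrins or bind them were described by count, from lists chosen with earlier results of these data in view. Among 14 tested activators, which carry the signal that extends the receptor, Rasgrp2 and Rasgrp1, exchange factors for Rap1 and Ras, fell in KO against WT gel (−0.34, SE 0.08, adjusted p 0.0137, and −0.47, SE 0.14, adjusted p 0.0342), and Rasgrp2 also in KO gel against KO media. Rasgrp2 was at 339.5, 329.9 and 322 CPM in KO gel, against 382, 417 and 459 CPM in WT gel. Talin 1, kindlin-3 and Rap1, encoded by Tln1, Fermt3, Rap1a and Rap1b, were not called in any comparison. Among 8 inhibitors, Flna, encoding filamin A, which competes with talin for the beta tail, and Dok1 fell in KO against WT gel (−0.28, SE 0.07, adjusted p 0.0175, and −0.22, SE 0.07, adjusted p 0.0463) and in KO gel against KO media. Transcripts on both sides of the control of integrins were thus lower in KO gel, as 7.71% of all genes were.

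In the adhesion complex, 19 of 20 genes were tested, and in KO against WT gel 3 rose and 1 fell, at a median of −0.05, where 7.12% of all genes rose and 7.71% fell. Src, a kinase that integrins activate, rose most clearly, to 1.24, 1.82 and 2.39 CPM in KO gel, against 0.637, 0.637 and 0.479 CPM in WT gel (1.65, SE 0.26, adjusted p 0.00110). Its interaction was called as well (1.75, SE 0.39, adjusted p 0.0275). Parvg, the parvin of blood cells, fell (−0.22, SE 0.07, adjusted p 0.0482). Of the ligands, 13 of 22 were tested, with 5 higher and 1 lower in KO against WT gel and a median of 0.41, beside 0.00 for all genes and the same 7.12% called higher. Fn1, fibronectin, was at 0.686, 0.824 and 0.748 CPM in KO gel against 0.111, 0.239 and 0.101 CPM in WT gel (2.40, SE 0.45, adjusted p 0.00325). Icam1, the LFA-1 ligand, was the most abundant ligand that rose, at 57.6, 53.9 and 56.2 CPM in KO gel, 44.8, 38.2 and 43.2 CPM in KO media, 42.2, 40.3 and 45.2 CPM in WT gel and 43.0, 44.0 and 52.4 CPM in WT media. It rose against WT gel (0.39, SE 0.08, adjusted p 0.00719) and against KO media (0.41, SE 0.08, adjusted p 0.00437), with a called interaction (0.53, SE 0.12, adjusted p 0.0288). Icam2, another LFA-1 ligand, fell (−0.34) to 21.5, 22.3 and 19.1 CPM in KO gel, against 26.7, 25.8 and 27.2 CPM in WT gel. Icam1 thus moved against its receptor chains in KO gel. The genes of these lists near or below 1 CPM that were higher in KO gel were so in the libraries that also held more detected genes.

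Of 12 membrane partners of integrins, 2 rose and 2 fell in KO against WT gel, with a median of −0.05, where 7.12% of all genes rose and 7.71% fell. Cd47, which associates with β3 integrins, fell (−0.24, SE 0.07, adjusted p 0.0336) to 589, 567 and 589 CPM in KO gel, against 652, 709 and 693 CPM in WT gel. Of 16 genes of TGF-β and retinoic acid signalling that are known to act on Itgae, Itgb7 or Itga4, 3 rose and 2 fell in this comparison, with a median of 0.01. Rarg, a retinoic acid receptor, rose (0.52, SE 0.11, adjusted p 0.00760), at 10.9, 10.6 and 11.2 CPM in KO gel against 7.23, 8.08 and 7.58 CPM in WT gel, and its interaction was called (0.83, SE 0.16, adjusted p 0.0159). Runx3, a RUNX factor of CD8 T cells, fell (−0.28, SE 0.08, adjusted p 0.0262) to 175, 176.5 and 169 CPM in KO gel, against 203, 217 and 211 CPM in WT gel. Zfp683, encoding Hobit, a factor of tissue-resident cells, fell (−1.44, SE 0.22, adjusted p 9.42e-04) to 0.660, 0.774 and 0.848 CPM, against 1.72, 2.11 and 2.39 CPM in WT gel. In WT gel against WT media no gene of any list was called by edgeR, with 1 adhesion complex gene and 0 genes of the other pathway lists at an unadjusted p under 0.05.

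For 5 of the genes called in at least 1 comparison, the genes with the most similar log2 CPM over the 12 libraries were sought among 8769 abundant genes, by Pearson's r as a description. The closest were Gpi1 for Itgb2 (r = 0.991), Ttf2 for Itgb7 (0.967), Il4ra for Itgb3 (0.966), Lpcat3 for Itgal (0.961) and Adcy6 for Itga4 (0.948). After Adcy6, the genes nearest to Itga4 were Igf1r (0.910) and Spock2 (0.871), so its pattern had few close matches. None of the 3 nearest genes of any of these 5 was itself an integrin. The points of each r share their libraries and their scaling.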

How the data were processed

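The deposited table holds whole-number read counts per gene symbol and library, raw counts made by the authors with no normalization. HISAT2, featureCounts, SAMtools, Picard, FastQC and MultiQC and the build GRCm38 (mm10) are named, per the submitters' processing notes. Not given in the sources used here are versions, annotation, strand setting and the treatment of duplicate and multiply mapped reads, any of which could change a count. Per the labels' protocols, 150 ng of total RNA per library was depleted of ribosomal RNA.

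Counts were scaled by TMM factors and filtered with filterByExpr, which left 19010 of 55291 symbols. edgeR 4.0.16 (R 4.3.3) fitted its quasi-likelihood model with robust dispersion to the 4 groups in 1 fit, with 5 contrasts. A gene was called at a p under 0.05 after Benjamini-Hochberg adjustment over all genes, and an SE is the absolute log2 fold change over the square root of F. The test was checked on simulated data. Log2 levels used a prior count of 2. DESeq2 1.42.0 and limma 3.58.1 were alternatives. Lengths and positions came from GENCODE M21, which matched 96.4% of symbols. Totals of 28483064 to 61390702 counts leave counting error small; between replicates the chi-square was 13.2 to 171 per degree of freedom.

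The 9 members and the lists were chosen with earlier results of these data known. Named genes were all members, the collagen-binding alpha chains, Dock8, Cd8a and Cd8b1, up to 4 called genes per list and contrast in order of p, and the 3 genes most like each called member, of which those for Itgb1 are not reported here; others are marked as named after their values were seen. Replicate numbers come from the library titles and were not a term of the fit. Deviations from group means correlated between libraries of the same number in WT gel and WT media (0.79, 0.24 and 0.80) and in KO media and WT media (0.21, 0.17 and 0.38), so the value with a replicate block stands beside those comparisons where it changes a call.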

Additional observations from a re-analysis of the deposited data

How the results depend on the processing

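For the 9 integrins, each call of the fit reported kept its direction under every alternative run; the other genes named were not rerun. In KO gel against KO media, 2 of the 9 were called; 4 were with DESeq2, with limma-voom, with no filter beyond 1 count and with the libraries of both groups alone, 1 with total counts alone and with only genes of a mean log2 CPM of at least 3, 6 with the replicate block (4 lower, and higher Itga4 at 0.18, adjusted p 0.0232, and Itgae at 0.19, adjusted p 0.0103) and 0 without WT gel library 2 and KO media library 3. With the replicate block 7804 of all 19010 genes were called in this comparison, against 3962 in the fit reported. Leaving out each replicate in turn gave 1 to 4. In KO against WT in gel, 6 were called, 7 with no filter (Itgae added), 3 with total counts alone, 2 without those libraries, and 4 to 6 with each replicate left out. In KO against WT in media, 0 were called; 2 were with DESeq2 and with no filter, 1 with the replicate block (Itga4), 4 averaged over both cultures, and 0 to 1 with each replicate left out. The interaction called 0, then 1 with DESeq2 and limma-voom, 2 with no filter, 4 with the replicate block (Itgae among them, 0.29, adjusted p 0.0126), and 0 to 2 with each replicate left out. Over all genes the replicate block called 3431 in the interaction, against 636 in the fit reported. In WT gel against WT media, 0 were called under all 20 alternatives. The cause of these shifts was not tested.

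Counts over all genes moved by more than 1.5 times too. They ran from 2042 to 7804 for KO gel against KO media (3962 in the fit reported), 2 to 195 for WT gel against WT media (7), 15 to 1188 for KO against WT in media (36, the highest averaged over both cultures), 1444 to 4156 for KO against WT in gel (2819) and 30 to 3431 for the interaction (636). For the replicate block, KO gel libraries share only a number with those of other groups: same-numbered libraries correlated at −0.04, 0.20 and 0.17 with KO media and at −0.45, 0.15 and 0.14 with WT gel, and not every library correlated best with its own number. Without WT gel library 2 and KO media library 3, 1444 genes were called in KO against WT gel and 30 in the interaction. Each of the 9 genes had at least 1871 counts in every library.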
